A study of Mus musculus with 18 samples.

Results

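Fibronectin, the product of Fn1, was followed in knee cartilage of mice after rupture of the anterior cruciate ligament (ACL), as the total of its gene and as each of its annotated transcripts. Transcript identifiers were matched, without their version, to the GENCODE annotation of the mouse, which gave 1 gene, Fn1, of 49184 and 17 of the 137436 transcripts listed in every library. The study sequenced 18 libraries of ribosomal RNA-depleted total RNA from femoral cartilage caps of male C57Bl/6J mice (C57bl6 in the labels), 12 weeks old at the start, each a pool of knees. The naive group (n = 6) came from untouched mice and is labelled for day 7, so that day 1 has no naive group of its own. The day 1 and day 7 injured groups (n = 3 each) came from right knees in which a single mechanical load had ruptured the ACL, taken 1 or 7 days later. The day 1 and day 7 contralateral groups (n = 3 each) came from the unloaded left knees of loaded mice. Per the study, more mice were used at day 7 than at day 1, and cartilage was partly lost by day 7, which set the size of pools. Pool size and cartilage loss thus went with the group, and their part in the differences was not tested. Estimated counts totalled 16074762 to 41794005 per library, of which Fn1 took 21242 to 230514. Per the study's methods, left and right knees of naive mice were pooled separately and injured and contralateral libraries came from shared pools of mice, which the study modelled as correlated. Which libraries share mice is not in the labels, so all were treated here as independent, the naive ones included, and p-values over them may be too small.

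Fibronectin is a large secreted glycoprotein that cells assemble, through integrins and heparan sulfate proteoglycans, into fibrils on which collagens and other matrix proteins are laid down. It is built of repeated modules, and its message is spliced differently in different tissues. Plasma fibronectin, made by the liver, lacks the extra domains A and B (EDA and EDB), which are included in cellular fibronectin of embryos, healing wounds and fibrotic tissue. Another site, the variable region, is included in whole, in part or not at all. Cartilage normally holds fibronectin around its chondrocytes, and fragments of the protein are known to provoke matrix breakdown there.

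Fn1 lies on the minus strand of chromosome 1, from 71585520 to 71653200 in GRCm38 coordinates (GENCODE vM21). Of its 17 transcripts 9 are annotated as protein coding, 5 as retained introns and 3 as targets of nonsense-mediated decay. The coding ones comprise 7 of full length and the short Fn1-206 and Fn1-208, which hold only the start of the message. The full-length forms differ at EDB, EDA and the variable region, which the annotation cuts in 2 parts, the first 25 codons (V25) and the 95 codons after them (V95). Fn1-201 holds all 4 segments. Fn1-214 holds EDA, V25 and V95, Fn1-203 holds V25 and V95, Fn1-217 holds V95 alone and Fn1-216 holds none. Fn1-211 holds EDA and V95, and Fn1-213 holds EDA alone. No annotated transcript holds EDB without EDA, so EDB could be seen here only through Fn1-201. All of these segments are coding exons or coding parts of one exon.

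The 4 segments are printed because the full-length forms are told from each other by them. They were read from the GENCODE vM21 transcripts, minus strand, 5′ to 3′. Capitals mark the codons of integrin sites, that for α4β1 and α9β1 in EDA and the Leu-Asp-Val site for α4β1 in V25. EDB is at chr1:71613763-71614035, EDA at chr1:71603660-71603929, V25 at chr1:71597673-71597747 and V95, directly after it in the message, at chr1:71597388-71597672.
EDB: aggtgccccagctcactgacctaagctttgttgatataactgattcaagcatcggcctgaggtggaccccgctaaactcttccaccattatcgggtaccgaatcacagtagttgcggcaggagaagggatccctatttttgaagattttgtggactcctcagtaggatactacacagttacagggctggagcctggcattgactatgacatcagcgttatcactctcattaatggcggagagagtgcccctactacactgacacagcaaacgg
EDA: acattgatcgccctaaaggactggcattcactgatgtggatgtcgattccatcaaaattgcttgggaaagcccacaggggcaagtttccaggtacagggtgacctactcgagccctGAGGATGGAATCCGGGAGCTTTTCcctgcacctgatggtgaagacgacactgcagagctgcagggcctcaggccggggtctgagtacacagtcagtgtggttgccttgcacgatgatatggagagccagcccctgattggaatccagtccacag
V25: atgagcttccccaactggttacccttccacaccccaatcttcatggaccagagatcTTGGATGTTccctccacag
V95: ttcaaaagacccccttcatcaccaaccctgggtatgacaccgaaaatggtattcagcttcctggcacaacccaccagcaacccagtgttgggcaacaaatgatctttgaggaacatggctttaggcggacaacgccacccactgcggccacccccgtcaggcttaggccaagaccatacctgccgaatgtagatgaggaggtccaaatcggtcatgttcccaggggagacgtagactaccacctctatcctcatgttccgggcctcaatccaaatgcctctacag

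In the form of their Fn1 transcripts 4 of the 18 libraries stood apart, and where 1 of them decides a result the value without it is given. In library 13, of the day 7 contralateral group, the full-length coding transcripts held 18% of the Fn1 TPM (an abundance corrected for transcript length), against 85.3% to 95.4% in the 17 others. There the intron-retaining Fn1-204, the short Fn1-208, the decay target Fn1-210 and the short Fn1-206 held 26.6%, 24.3%, 18.4% and 12.4%. In library 13 42.5% of the counts fell on its 10 most abundant genes, against 16.6% to 29.8% elsewhere. The study's methods state that a library of the injury model was dropped for a low mapping rate. Which one is not given in the sources used here, and library 13 was kept. Libraries 3 (day 1 injured), 5 (day 1 contralateral) and 11 (naive) had more of the EDA-holding Fn1-214 than the rest of their groups, as described with the exons.

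Col2a1, the main cartilage collagen, was measured at 2187 to 10448 CPM (counts scaled to library size) over the libraries and at most at 4989 CPM without library 13, and all 12 chondrocyte markers had counts in every one. The libraries, labelled as chondrocytes, held RNA of other cells too. Erythroid markers summed to 15765 to 62806 CPM, more in every library than the 4398 to 13752 CPM of the chondrocyte markers. Library 13 set both upper limits, which were 39366 and 9921 CPM without it. Macrophage, endothelial, skeletal muscle, bone and connective tissue fibroblast markers were counted in every library as well.

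Fibronectin message rose in the injured knee by day 7. CPM of Fn1, normalized over the 18 libraries, were 6373, 8585 and 10662 in day 7 injured libraries. Naive libraries ran from 1648 through a median of 3046 to 3416, and day 7 contralateral libraries stood at 1655, 1959 and 2686. All 3 day 7 injured libraries lay above every other library of the study. At day 1 the injured libraries stood at 3072, 3179 and 3394 CPM and the contralateral ones at 1921, 2198 and 3353, inside or near the naive range.

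**Figure D1:**
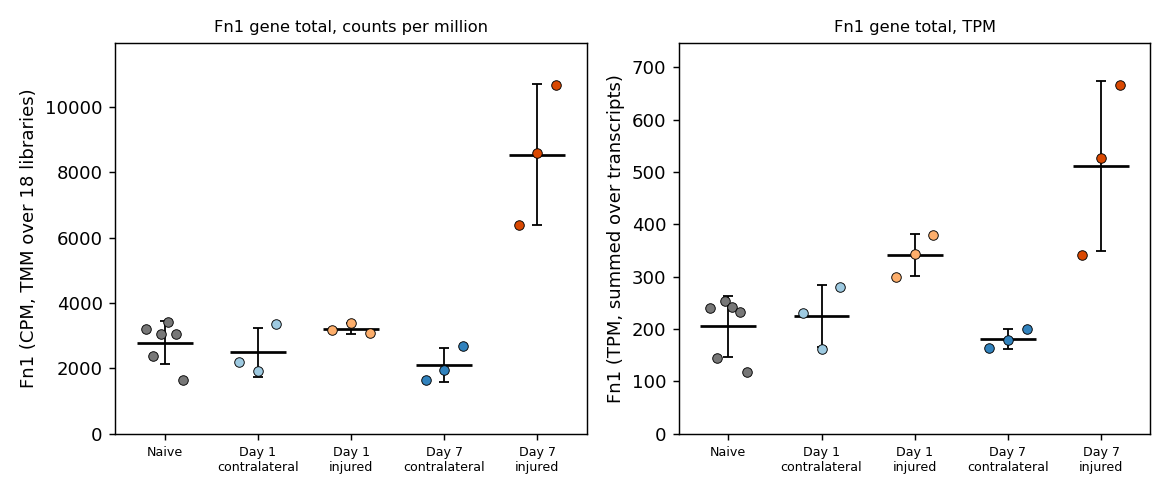
Fn1 gene total by group, as CPM (left) and TPM (right). Points are libraries, horizontal lines group means and error bars ± 1 SD (n = 6 naive, 3 in each other group). In CPM the day 7 injured libraries lie at 6373 to 10662, above all others, while in TPM the lowest of them, at 342, lies among the day 1 injured libraries.

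Fn1 was 3.10-fold higher in day 7 injured than in naive libraries (log2 1.63 ± 0.221 SE, FDR = 5.33e-05, edgeR quasi-likelihood test). A gene was called where its FDR was no more than 0.05 and its change 1.5-fold or more, and 10.4% of the 21129 genes tested were called higher. Against the day 7 contralateral libraries the difference was 4.07-fold (log2 2.02 ± 0.281 SE, FDR = 6.05e-05), where 9.33% of 21262 genes were called higher. Day 7 exceeded day 1 among injured libraries by 2.69-fold (FDR = 0.00159, 9.04% of genes called higher).

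No change of Fn1 passed the test at day 1. It stood at 1.29-fold in injured over contralateral libraries (log2 0.36 ± 0.266 SE, FDR = 0.809) and at 1.15-fold over naive ones (FDR = 0.987), in comparisons where edgeR called 0 genes. The contralateral knees stood at 0.896-fold of naive at day 1 (FDR = 1.00) and 0.753-fold at day 7 (FDR = 0.416). Both directions turned with the scaling, at day 1 to a log2 difference of 0.15 on log2(TPM + 1) with limma (FDR = 0.723) and at day 7 to 0.30 with transcript length as offset (FDR = 0.630). The effect of injury against the contralateral knee was larger at day 7 than at day 1 by 1.66 on the log2 scale (± 0.385 SE, FDR = 0.0204), a difference called for 3.53% of genes in this direction. That call was lost when any of libraries 2, 5, 14 or 18 was left out, with FDR of 0.0534, 0.0705, 0.0535 and 0.0753. It was also lost with transcript length as offset, at 0.98 (FDR = 0.368), and on log2(TPM + 1) with limma, at 0.82 (FDR = 0.752).

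TPM correct for length and are scaled to a fixed sum per library, without the further normalization between libraries used for CPM. As TPM, Fn1 stood at 342, 526 and 666 in day 7 injured libraries. Day 1 injured libraries stood at 299, 344 and 380 TPM, so that the lowest day 7 library fell among them. Naive libraries ran from 118 through 237 to 253 TPM. By TPM Fn1 ranked 22, 24 and 41 among 21918 protein-coding genes in day 7 injured libraries and between 110 and 256 in naive ones. Tested as log2(TPM + 1) with limma, the difference between day 7 and day 1 injured libraries was 0.54 (FDR = 0.122), and day 1 injured libraries exceeded naive ones by 0.78 (FDR = 0.0281). The call at day 1 was thus made on this scale alone.

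Over naive libraries the increase passed the test in 4 full-length forms, and over day 7 contralateral ones in 2 of these, Fn1-201 and Fn1-217. Fn1-203, with the whole variable region and no extra domain, was the most abundant transcript at day 7, at 112, 176 and 324 TPM in injured libraries. In naive libraries it ran from 38.1 to 76.7 TPM, below all 3 injured ones. Fn1-203 rose in day 7 injured over naive libraries by 2.08 on the log2 scale (± 0.223 SE, FDR = 5.93e-05, edgeR over 63852 transcripts, of which 4.55% were called higher). That call was lost when all 18 libraries entered the fit, with a log2 difference of 2.09 (FDR = 0.0731).

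Fn1-217, which lacks V25, stood at 99.2, 174 and 178 TPM in day 7 injured libraries and at 44.8 to 92.0 TPM in naive ones. It rose by 1.39 (± 0.202 SE, FDR = 7.00e-04). Fn1-201, which holds EDB and EDA, stood at 25.5, 39.3 and 56.5 TPM against 8.27 to 18.7 TPM, and rose by 1.93 (± 0.233 SE, FDR = 1.55e-04). The groups did not overlap for either transcript.

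Fn1-216, the form without any of the 4 segments, was called with the least margin. It stood at 45.5, 61.9 and 62.9 TPM in day 7 injured libraries against 16 to 48.3 TPM in naive ones, which overlapped. Its log2 difference was 1.18 (± 0.304 SE, FDR = 0.0280), and the call was lost without library 7, 16, 17 or 18, with FDR of 0.0513 to 0.0944. Fn1-214 stood at 9.25, 15 and 15.1 TPM against 2.03 to 4.14 TPM in 5 naive libraries and 13.4 TPM in library 11. Its log2 difference of 1.85 (± 0.742 SE, FDR = 0.145) did not pass the test, and was 2.47 (FDR = 0.0479) without library 11. Over day 7 contralateral libraries the log2 difference of Fn1-214 was 2.85 (± 0.902 SE, FDR = 0.108), which did not pass the test either. Libraries 3, 5 and 11 were singled out, after seeing the data, by their high Fn1-214. With all 3 left out, its log2 difference was 2.47 from naive and 2.84 from day 7 contralateral libraries. Such a choice by itself narrows the spread of Fn1-214, so that fit cannot serve as a test of it.

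Against the day 7 contralateral libraries, where 2.69% of 65188 transcripts were called higher, Fn1-201 rose by 2.29 (± 0.291 SE, FDR = 2.60e-04) and Fn1-217 by 1.99 (± 0.345 SE, FDR = 0.00312). Fn1-203 stood at 0.306, 62.1 and 63.8 TPM in the contralateral libraries, the lowest being library 13. Its log2 difference of 2.78 (± 0.833 SE) had an FDR of 0.0881 with that library and 0.00145 without it, when the difference was 2.18. Fn1-216 stood at 16.3, 26.5 and 32.5 TPM in the contralateral libraries, below all 3 injured ones, and its log2 difference of 1.21 (± 0.374 SE, FDR = 0.0991) did not pass the test. It was called without library 5 (FDR = 0.0439). Between day 7 and day 1 injured libraries, with 3.48% of transcripts called higher, Fn1-203 and Fn1-201 rose by 1.81 each (FDR = 0.00191 and 0.00267) and Fn1-217 by 1.26 (FDR = 0.00891).

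Of the 17 transcripts 13 passed the filter on low counts. The 5 retained-intron forms together held 2.26% to 4.07% of Fn1 TPM in day 7 injured libraries and 3.82% to 6.42% in naive ones, and none of them was called. Fn1-208, a short coding form covering the start of the message, held 12.1%, 6.86% and 1.61% of Fn1 TPM in day 7 injured libraries and from 1.19% to 8.42% in naive ones, ranges that overlap widely. Fn1-205, Fn1-206, Fn1-211 and Fn1-213 did not pass the filter. Fn1-211 and Fn1-213 were at or near 0 TPM in every library.

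**Figure D2:**
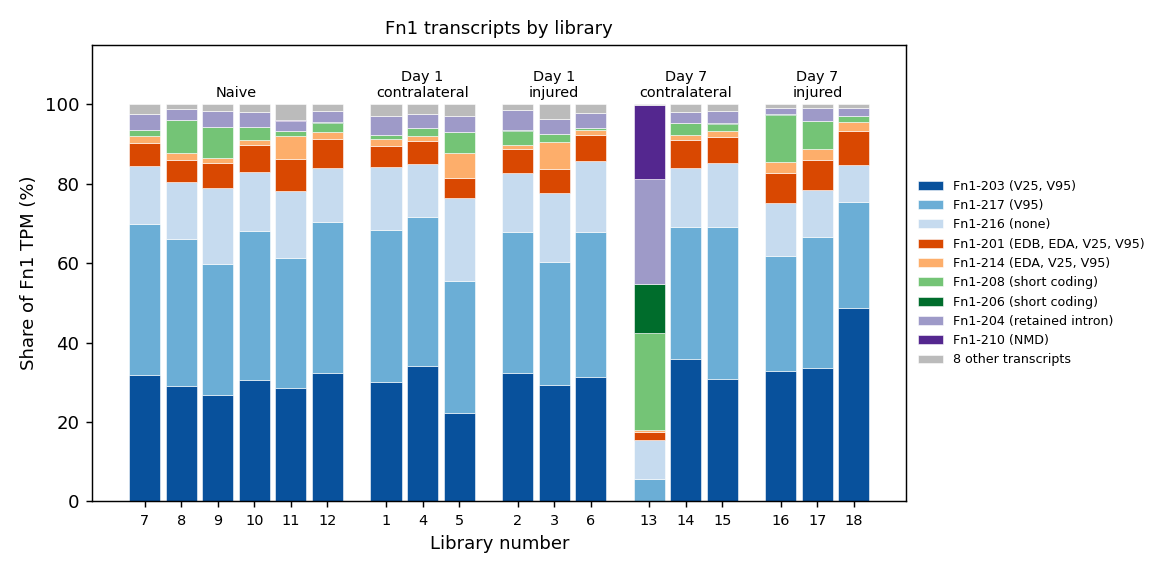
Share of Fn1 TPM held by each transcript in each library, with the libraries grouped by condition and the segments that each full-length form holds given in the key. The full-length forms fill 85.3% to 95.4% of every bar except that of library 13, where they fill 18%.

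The share of the gene held by each form was tested apart from the gene total. Fn1-203 held 32.9%, 33.5% and 48.7% of Fn1 TPM in day 7 injured libraries and 26.7% to 32.4% in naive ones. Fn1-217 held 29.0%, 33.1% and 26.7% against 32.7% to 38.1%, and Fn1-216 held 13.3%, 11.9% and 9.29% against 13.6% to 19.1%. Fn1-203 thus lay above the naive libraries and Fn1-216 below them, while Fn1-217 overlapped them. For Fn1-216 this held by TPM alone, since as a share of Fn1 estimated counts injured library 16 stood at 14.5%, above naive library 12 at 13.8%. Contralateral library 13, at 10% of Fn1 TPM, lay below 2 of the 3 injured libraries for Fn1-216. Among contralateral libraries, library 14 of day 7 at 35.8% and library 4 of day 1 at 34.2% lay above 2 of the 3 injured libraries for Fn1-203. Fn1-201 and Fn1-214 also hold V25 and V95, and both overlapped the naive libraries, Fn1-201 at 7.46% to 8.48% against 5.67% to 8.03% and Fn1-214 at 2.27% to 2.84% against 1.25% to 5.77%.

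None of these shares passed the test of transcript usage in edgeR between day 7 injured and naive libraries. Relative to the gene, Fn1-203 stood at 0.40 on the log2 scale (± 0.388 SE), Fn1-201 at 0.25 (± 0.399 SE), Fn1-217 at -0.29 (± 0.399 SE) and Fn1-216 at -0.50 (± 0.407 SE), each with an FDR of 1.00. Single omissions moved Fn1-203 between 0.20 and 0.49, Fn1-201 between 0.20 and 0.31, Fn1-217 between -0.40 and -0.16 and Fn1-216 between -0.62 and -0.30. On simulated data this test recovered a smaller share of changed transcripts than the gene test did, so a missed call does not show that shares were equal. The smallest FDR of an Fn1 transcript was 0.708, for the retained-intron Fn1-215. Across all genes the test passed 0.715% of 55261 transcripts. Against the contralateral libraries the decay target Fn1-210 alone passed, at -9.75 (FDR = 1.75e-05), which came from its 18.4% share in library 13. Without that library it stood at -1.15 (FDR = 1.00).

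Inclusion of each segment was then computed as the percentage of TPM of the coding transcripts spanning its place that hold it. V25 was included at 49.3%, 50.4% and 62.3% in day 7 injured libraries. Naive libraries ran from 39.8% through a median of 42.5% to 46.0%, below all 3. The means, 54.0% ± 7.16 (SD, n = 3) and 42.8% ± 2.18 (n = 6), differed by 11.2 points. With libraries that can share mice taken as independent, the exact 2-sided permutation p was 0.0238, the smallest this design allows. Adjusted over 30 tests, it was 0.273. These covered 5 comparisons of the 4 segments and of 2 further exons, which lay at 99.8% or more in every library but library 13, at 77.4%.

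V25 inclusion in day 7 injured libraries also lay above that of the day 1 injured ones, at 42.0%, 43.9% and 46.8%, and of the day 7 contralateral ones, at 14.8%, 41.9% and 47.8%. With 3 libraries a side the exact permutation p cannot fall under 0.10, and it was 0.10 for both. Library 13 gave the 14.8%, and without it the difference from the contralateral group was 9.18 points instead of 19.2. Over all Fn1 transcripts that span V25, not the coding ones alone, library 13 stood at 57.9%, above 2 of the 3 injured libraries at 49.4%, 50.6% and 62.4%, and the difference was 4.80 points. V95 was included at 84.4%, 86.6% and 90.3% at day 7 against 78.0% to 85.4% in naive libraries, which overlapped (exact permutation p = 0.0476, adjusted p = 0.273). The day 7 values lay above the day 1 injured ones by 5.36 points and above the day 7 contralateral ones by 16.7 points, without overlap (exact permutation p = 0.10 for both). The latter was 3.81 points at the least with 1 library left out. Library 18, the highest at day 7 for V25 and V95, moved their differences from naive most. Without it these were 7.10 points for V25 and 2.77 points for V95 instead of 4.37.

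EDB, held only by Fn1-201, was included at 8.40%, 8.74% and 8.89% in day 7 injured libraries. Naive libraries ran from 6.17% through 7.35% to 8.73%, with library 11 the highest, and day 1 injured libraries stood at 6.73%, 6.80% and 6.90%. The difference from naive libraries was 1.37 points (exact permutation p = 0.0476, adjusted p = 0.273). Without library 11 it was 1.65 points, and the other 5 naive libraries, at 6.17% to 7.75%, lay below all 3 injured ones. Library 11 was singled out after seeing the data, so that omission cannot serve as a test. The day 7 injured libraries lay above all 3 day 1 injured ones (1.87 points, exact permutation p = 0.10, the smallest possible). The contralateral libraries of day 7, at 7.04%, 7.63% and 11.1%, lay on both sides of the day 7 injured ones. The highest of them was library 13. The difference of 0.0910 points from the contralateral libraries was 1.34 points without library 13. The remaining contralateral values then lay below all 3 injured ones. Over all single omissions the difference ran from -0.682 to 1.34 points. At day 1 the injured libraries lay above all 3 contralateral ones, which stood at 5.64%, 5.94% and 6.09% (0.92 points, exact permutation p = 0.10, adjusted p = 0.273).

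EDA was included at 11.3%, 11.6% and 11.9% in day 7 injured libraries. Of the naive libraries 5 lay between 8.04% and 9.60% and library 11 at 15%, above every day 7 library. The difference of 1.80 points had an exact permutation p of 0.381 with library 11. Without library 11 the difference was 2.84 points and the groups did not overlap. Library 11 was singled out after seeing the data by its high EDA and was the only naive library above the injured ones. That omission therefore cannot serve as a test. The day 7 contralateral libraries stood at 8.73%, 9.06% and 13.7%, the highest being library 13, above every injured library. The difference of 1.09 points from them (exact permutation p = 0.40) was 2.70 points without library 13. Over all single omissions it ran from 0.21 to 2.70 points. Among day 1 libraries, library 3 stood at 14.3% against 7.85% and 8.44% in the other injured ones, and library 5 at 13% against 7.47% and 7.57% in the other contralateral ones. In libraries 3, 5 and 11 Fn1-201 carried 47.1%, 45.8% and 58.2% of the EDA-holding TPM and Fn1-214 the rest, while in the other 15 libraries Fn1-201 carried 72.4% to 86.6%.

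**Figure D3:**
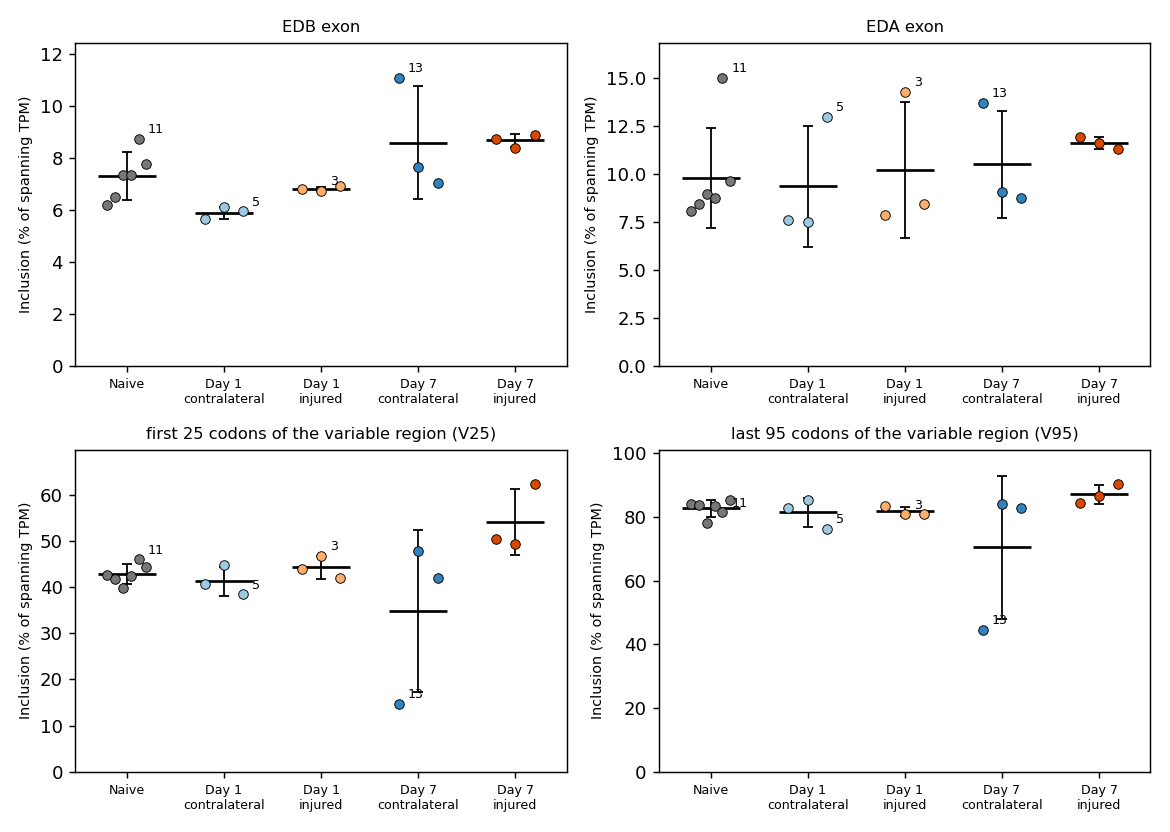
Inclusion of EDB, EDA, V25 and V95 as a percentage of the TPM of coding Fn1 transcripts that span each segment. Points are libraries, horizontal lines group means and error bars ± 1 SD, and libraries 3, 5, 11 and 13 are numbered. Day 7 injured libraries lie above all naive libraries for V25 (49.3% to 62.3% against 39.8% to 46.0%) and overlap them for EDB, EDA and V95.

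The same 3 libraries stood apart in genes other than Fn1, picked out after their values were seen. Tnfaip6, a hyaluronan-binding protein induced in inflamed joints, stood at 37.1, 34.1 and 19.6 CPM in libraries 3, 5 and 11, at 40.0 to 78.2 CPM in day 7 injured libraries and at 1.35 to 4.04 CPM in the other 12. Pdpn, a surface marker of the synovial lining, stood at 47.5, 54.1 and 45.5 CPM, at 40.8 to 52.4 CPM at day 7 and at 5.69 to 15.2 CPM elsewhere. Has1, a hyaluronan synthase, and Mmp3 were the highest of their groups in these libraries too. The fibroblast list, of which Pdpn and Has1 are members, summed to 927, 811 and 952 CPM in them, and Dcn alone made up 435, 360 and 458 CPM of these sums. The part of other tissue in their EDA inclusion was not tested.

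The 7 lists around fibronectin were written with earlier results of these data known, so their counts cannot serve as a test against all genes. Of their 76 genes, 73 were tested. In day 7 injured against naive libraries 34 were called higher and 2 lower, where 10.4% of all genes were called higher and 6.11% lower. Against the day 7 contralateral libraries 30 were called higher and none lower, with backgrounds of 9.33% and 3.23%. Left without libraries 3, 5 and 11, the counts were again 34 and 2, and 30 and none. At day 1, and between contralateral and naive libraries, edgeR called none of them, as it called 0 genes in all.

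The receptors moved in part. Of 14, 8 were called higher than naive, where 10.4% of all genes were. The median log2 difference of the 14 was 0.81 against -0.04 over all genes tested. Itgb1, the β chain of the main fibronectin receptor α5β1, stood at 582, 651 and 673 CPM in day 7 injured libraries against 298 to 349 CPM in naive ones, a 2.01-fold rise (FDR = 8.41e-07). Its partner Itga5 stood at 133, 147 and 193 CPM against 43.7 to 55.7 CPM in 5 naive libraries and 131 CPM in library 11. It rose 2.48-fold (FDR = 0.0181), 3.12-fold without library 11 (FDR = 0.00140), and its FDR was 0.0865 without library 18. Sdc1 and Sdc2, heparan sulfate proteoglycans that act as co-receptors, rose 3.58- and 2.67-fold, and Itgb5, a partner of the αv chain, 2.14-fold. Itga4 and Itga9, the α chains of the receptors for the V25 and EDA sites, stood at -0.38 (FDR = 0.00578) and 0.30 (FDR = 0.0064) on the log2 scale, both short of the 1.5-fold limit, and are named after their values were seen.

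Among matrix proteins that bind or assemble with fibronectin, 12 of 14 were called higher than naive, where 10.4% of all genes were. The median log2 difference of the 14 was 1.88. Postn, periostin, stood at 2087, 2906 and 3470 CPM in day 7 injured libraries and at 82.9 to 305 CPM in naive ones, a 19.5-fold rise (FDR = 2.98e-06). Col3a1 and Col5a1, chains of fibrillar collagens III and V, rose 12.6- and 9.50-fold. Tnfaip6 rose 9.98-fold (FDR = 0.0160), with library 11 at 19.6 CPM among naive libraries at 1.35 to 3.92 CPM, and its FDR was 0.066 without library 18. Without library 11 Tnfaip6 rose 21.3-fold (FDR = 0.00227). Tnc, tenascin C, which binds fibronectin fibrils, rose 2.76-fold (FDR = 9.03e-07).

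Of the machinery that links integrins to the cytoskeleton, 3 of 11 members were called higher than naive, where 10.4% of all genes were. The median log2 difference of the 11 was 0.17. Parva, α-parvin, stood at 117, 147 and 162 CPM in day 7 injured libraries against 45.0 to 64.6 CPM in naive ones and rose 2.53-fold. Fermt2, kindlin 2, and Ptk2, focal adhesion kinase, rose 1.84- and 1.64-fold. The other 8, such as talin and vinculin genes, were not called.

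Among proteinases that cleave fibronectin, 4 of 8 tested members were called higher than naive, where 10.4% of all genes were. The median log2 difference of the 8 was 1.44, while Mmp7 and Mmp10 were too low to test. Mmp2, gelatinase A, stood at 1076, 1094 and 1421 CPM in day 7 injured libraries against 101 to 142 CPM in naive ones, a 9.78-fold rise (FDR = 1.81e-09). Mmp14, the membrane-type proteinase that activates it, rose 7.08-fold, and Htra1, a secreted serine proteinase, 5.02-fold. Mmp9, the most abundant member by its mean over all libraries, stood at 707 to 848 CPM against 600 to 874 CPM in naive libraries (edgeR FDR = 0.936). Day 7 contralateral libraries stood higher for Mmp9, at 911 to 1187 CPM, a difference that was not called. Mmp13, collagenase 3, rose 1.84-fold over naive (FDR = 0.00774) but stood at 1.08-fold of the day 7 contralateral libraries (FDR = 0.808), whose 387 to 502 CPM overlapped the 494 to 513 CPM of the injured ones. Mmp3, stromelysin 1, stood at 29.6, 33.6 and 36.7 CPM against 1.98 to 9.45 CPM in 5 naive libraries and 27.2 CPM in library 11 (FDR = 0.0779), and was 9.24-fold higher than in contralateral libraries (FDR = 0.0386). Without library 11 Mmp3 was called over naive (FDR = 0.00969), and without any one day 7 injured or contralateral library it lost its call over contralateral ones (FDR of 0.0565 to 0.109).

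Of the 8 genes of TGF-β signalling, a known inducer of fibronectin and of EDA inclusion, 5 were called higher than naive, where 10.4% of all genes were. The median log2 difference of the 8 was 0.60. Tgfb3 stood at 74.2, 81.4 and 109 CPM in day 7 injured libraries against 20.5 to 28.1 CPM and rose 3.62-fold. Tgfb2 rose 2.54-fold, the receptor Tgfbr2 1.77-fold and the target Ccn2, connective tissue growth factor, 1.51-fold. The call of Ccn2 was lost without library 12 or 18. Tgfb1 stood at 142 to 155 CPM against 143 to 173 CPM in naive libraries (FDR = 0.586), with overlapping groups.

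Of 16 splicing regulators tested, 2 were higher and 1 lower than naive, near the 10.4% and 6.11% of all genes called. Their median log2 difference was -0.02. Rbfox2, whose protein binds intronic motifs around alternative exons, stood at 114, 118 and 156 CPM in day 7 injured libraries against 38.3 to 50.4 CPM and rose 2.79-fold (FDR = 2.03e-07). Mbnl2, a muscleblind protein, rose 1.64-fold, and fell short of the fold limit without library 18 (log2 0.57). The epithelial regulator Esrp2 was 0.550-fold of naive (FDR = 0.0399), at 0.409 to 0.509 CPM, near the lower end of what was tested, and its call was lost without library 2, 4, 7, 9, 10, 12, 16, 17 or 18. Srsf1, an SR protein known to act on EDA, stood at 224 to 271 CPM against 241 to 275 CPM (FDR = 0.833).

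The genes beside Fn1 did not follow it. Atic stood at 55.5, 55.8 and 57.5 CPM in day 7 injured libraries within the naive range of 49.4 to 67.2 CPM (FDR = 0.833). Mreg, at 3.01, 3.74 and 5.31 CPM against 4.46 to 10.8 CPM, was 0.544-fold of naive (FDR = 0.0325), a call lost without library 8, 9, 10, 17 or 18.

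**Figure D4:**
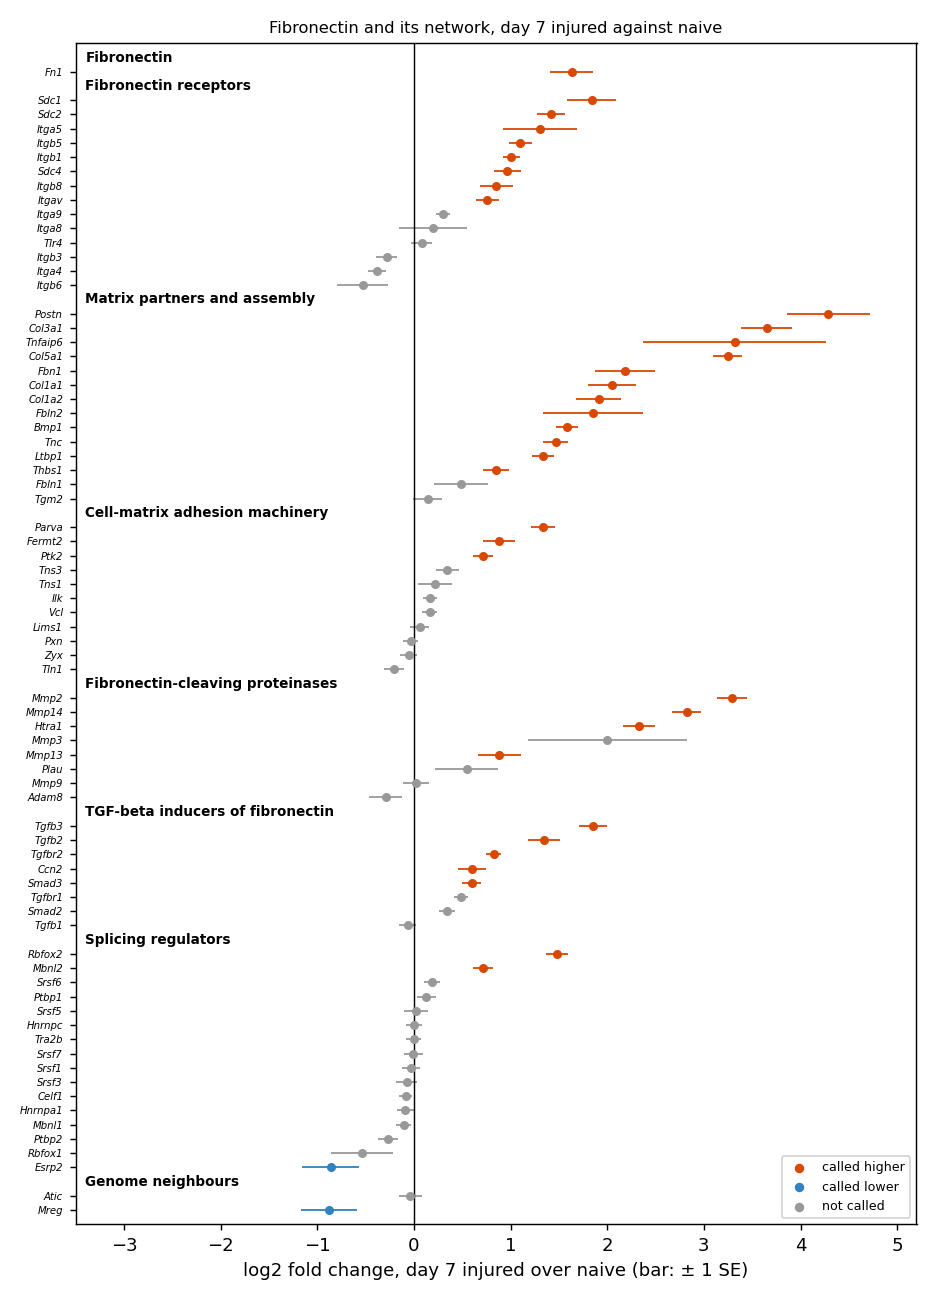
Log2 fold change of Fn1 and of the 73 tested genes of 7 lists between day 7 injured and naive libraries, with bars of ± 1 SE. Orange marks the genes called higher (FDR no more than 0.05, change 1.5-fold or more), blue those called lower and grey the others. Matrix partners lie furthest to the right, up to 4.29 for Postn, and most splicing regulators lie near 0.

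Across the 18 libraries the genes whose centred log2 CPM lay closest to those of Fn1, among 21262, were Anxa8, Prrx1, Sox9, Lama4 and Lrig3, with root mean square differences of 0.14, 0.16, 0.19, 0.20 and 0.20 against a median of 0.81 over all genes. Anxa8, an annexin, stood at 77.5, 80.9 and 111 CPM in day 7 injured libraries and at 17.6 to 39.8 CPM in naive ones. Prrx1, a homeobox factor of limb mesenchyme, stood at 150, 202 and 232 CPM against 45.4 to 77.3 CPM. Sox9, the chondrocyte transcription factor, stood at 40.6, 50.9 and 71.6 CPM against 14.1 to 26.9 CPM.

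Cell type markers also moved between the groups. The 10 fibroblast markers summed to 2569, 3274 and 3647 CPM in day 7 injured libraries against 898 to 1422 CPM in naive ones, with Dcn the most abundant gene, and 7 of the 10 were called higher, where 10.4% of all genes were called higher and 6.11% lower. Chondrocyte markers summed to 7990 to 9921 CPM against 4472 to 8241 CPM, with 4 of 12 called higher, while their most abundant gene Col2a1 was not (log2 0.25, FDR = 0.358). Endothelial markers had 3 of 6 called higher, but their most abundant gene, Vwf, was lower (log2 -0.37, edgeR FDR = 0.0271), short of the fold limit. Macrophage and skeletal muscle markers had none of 8 and none of 7 called. Bone markers had 1 higher and 1 lower of 7, and erythroid markers 3 of 6 lower. The most abundant genes of these lists were Vwf, Lyz2, Myh4, Ibsp and Hbb-bs, in that order. No marker was at 0 counts in any library. In such bulk samples more cells of a type and more RNA per cell cannot be told apart, and the part of fibroblast numbers in the rise of Fn1 was not tested.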

How the data were processed

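Per the labels and the study's methods, RNA was depleted of ribosomal RNA, sequenced with a stranded kit and pseudo-aligned by the authors with Kallisto. The deposited values are estimated counts per transcript, not normalized, and TPM, scaled by the authors' tool to 1 fixed sum per library. The build is given as GRCm38 in the methods and as a human one in the labels. Transcript identifiers matched GENCODE vM21 for 98.3% without their version, and the lengths of all 17 Fn1 transcripts equalled the annotation. Counts were summed to genes, rounded, filtered and TMM-normalized, and tested in edgeR 4.0.16 under R 4.3.3 by quasi-likelihood, with Benjamini-Hochberg adjustment over all genes or transcripts. Comparisons without the day 7 contralateral group used the other 15 libraries. Transcript usage used diffSpliceDGE, which treats the transcripts of a gene as independent. Kallisto splits reads that transcripts share, so levels of forms that differ by 1 exon are estimates, whose assignment error was not analysed here. Standard errors come from the fold change and its F statistic. Inclusion was compared by exact permutation with scipy 1.17.1. Alternatives used DESeq2 1.42.0 and limma 3.58.1. The fits were tested on simulated data. Fn1, its lists and tests were chosen with earlier results of these data known. Genes were named by rule: up to 4 called members per list with the largest change from naive, 8 fixed genes, the neighbours, the 5 nearest profiles and the top gene of each marker list. Itga4, Itga9, Mmp9, Pdpn and Has1 were added after their values were seen.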

Additional observations from a re-analysis of the deposited data

Results flagged for a closer look

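Among the 6 naive libraries, library 11 lay far from the others in EDA inclusion and in the shares of Fn1-214 and Fn1-210, by a gap measure (Dixon's) whose 95% critical value sets apart about 1 in 20 groups by chance. The 20 series of Fn1 values examined overlap in the transcripts they count, so that rate cannot be set against a tally of them. EDA inclusion was 15% in library 11 and 8.04% to 9.60% in the other 5. The share of Fn1 TPM held by Fn1-214 was 5.77% there and 1.25% to 1.72% in the others, and since Fn1-214 carries EDA the EDA value is not a separate observation. Fn1-210 held 0.148% there and was listed at 0 in the others, where any value above 0 would have been set apart. Library 11 was also the highest naive library for Tnfaip6, Pdpn, Has1 and Mmp3. Its summed fibroblast markers, among them Pdpn and Has1, lay inside the naive range at 952 CPM, of which Dcn made up 458 CPM.

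The effect of injury on the Fn1 total differed between the time points, being larger at day 7 than at day 1 by 1.66 on the log2 scale (edgeR FDR = 0.0204). The call was lost without library 2, 5, 14 or 18, without libraries 3, 5 and 11 together (FDR = 0.0972), with transcript length as offset (0.98, FDR = 0.368) and on log2(TPM + 1) (0.82, FDR = 0.752). In CPM, Fn1 was higher in all 3 injured than in all 3 contralateral libraries at day 7, and the groups overlapped at day 1. In TPM the day 1 injured libraries, at 299, 344 and 380, lay above the contralateral ones, at 162, 231 and 280. The usage of Fn1-210 differed between the time points too, at -10.69 on the log2 scale (FDR = 9.88e-04). That value came from library 13, in which Fn1-210 held 18.4% of Fn1 TPM against at most 0.148% in any other library.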

How the results depend on the processing

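The calls of Fn1 as higher in day 7 injured than in naive or day 7 contralateral libraries held under every alternative tried, at log2 1.32 to 1.64 and 1.32 to 2.03. Leaving out 1 library at a time gave 1.45 to 1.81 and 1.83 to 2.22. With average transcript length as offset, the larger effect at day 7 than at day 1 fell to 0.98 (FDR = 0.368), and day 7 contralateral libraries stood above naive ones by 0.30. On log2(TPM + 1) with limma, day 7 exceeded day 1 among injured libraries by 0.54 (FDR = 0.122), day 1 injured exceeded naive libraries by 0.78 (FDR = 0.0281), the difference between the time points was 0.82 (FDR = 0.752) and day 1 contralateral libraries lay above naive ones by 0.15. Without libraries 3, 5 and 11 the difference between the time points was 1.42 (FDR = 0.0972), and leaving out single libraries gave 1.37 to 1.86. Single omissions moved day 1 contralateral against naive between -0.44 and 0.0018. The cause of these shifts was not tested. EDB inclusion against day 7 contralateral libraries, 0.0910 points, was -0.0026 points from estimated counts and -0.682 to 1.34 points with single omissions. Of the lists, limma-voom called 0 members lower than naive, and an FDR alone called 3 lower than contralateral, while single omissions gave 0 to 2 and 0 to 1. In transcript usage, single omissions moved Fn1-210 against naive between -2.31 and 0.026 and Fn1-217 against contralateral between -0.27 and 0.15. Fn1-203 lost its call against naive with all 18 libraries in the fit (FDR = 0.0731). DESeq2 called Fn1-203, Fn1-214 and Fn1-216, and limma-voom Fn1-203, as higher than contralateral. No paired analysis was possible because each library number is used once and the labels tie no injured library to a contralateral one, although the study modelled pools of mice that libraries share. With 3 libraries a group, exact tests cannot pass 0.10, and segments shared by several transcripts rest on how Kallisto divided reads.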
